A study of Homo sapiens with 40 samples.

Results

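The response of A414T cells to tunicamycin was read over all genes from 6 arrays, 3 of A414T cells under basal conditions and 3 of A414T cells on tunicamycin, out of 40 arrays in the series. A414T cells are U87 cells, an established human glioblastoma line, that stably express IRE1 carrying the A414T substitution, which lies in the luminal part of the protein, from the CMV promoter of a lentiviral pCDH vector with puromycin resistance and copGFP. The labels name this line by a clone number (7), while the study's methods describe selection of whole populations, and the cells kept their own IRE1. Tunicamycin was given at 0.5 µg/ml for 16 h. Whether basal cells received its solvent or nothing is not stated in the sources at hand. The response was set beside those of cells with the empty vector (EV, 3 basal and 3 treated arrays), with wild-type IRE1 (WT, 3 and 3) and with the dominant negative IRE1-DN (2 and 2). For some results the cells with the IRE1 variants S769F, Q780* and P336L (3 and 3 arrays each) are also given. S769F and Q780*, a premature stop, lie in the kinase domain, and P336L lies in the luminal part. All were U87 cells with the same treatment. The study's methods give the pCDH vector for EV, WT and variant cells but do not list IRE1-DN there, and the study cites earlier work for it. Vector and selection of the IRE1-DN cells may therefore differ. The arrays of a group are called biological replicates in the labels. Nothing says that each had its own culture, and the p-values may then rest on technical spread alone.

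Tunicamycin blocks the first step of N-glycan assembly, and unglycosylated proteins then misfold in the endoplasmic reticulum (ER). Misfolding is sensed by 3 ER membrane proteins. IRE1 removes an intron from XBP1 mRNA, so that the transcription factor XBP1s is made, and also cleaves other mRNAs (regulated IRE1-dependent decay, RIDD). PERK phosphorylates the translation factor eIF2alpha, which favours translation of ATF4 and then CHOP, and ATF6 is cut in the Golgi to release a transcription factor. Together they raise the chaperones, the degradation machinery and the amino acid supply of the ER, the unfolded protein response (UPR).

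ATF6, helped by NF-Y, acts through the ER stress response element (ERSE), and ATF4 with a C/EBP partner acts through a composite element. Both were searched by their letters, on both strands, in the 250 bases before each gene's start (RefSeq, GRCh38.p14), because they show what the responding genes carry in their promoters. The ERSE, searched as CCAAT and CCACG with 9 bases of any kind between them, was found before 15 of 13549 tested genes with a promoter in the table (0.11%). It was found before 7 of 30 genes for ER chaperones and disulfide isomerases (23.33%), before 7 of 654 genes called higher in A414T cells on tunicamycin (1.07%) and before none of 801 called lower. Over all 27305 promoters of the table the share was 0.08%. Of reported XBP1s targets 1 of 24 carried it (4.17%), and none in the lists of PERK-ATF4-CHOP stress genes, ER-associated degradation and amino acid synthesis. The promoter of HSPA5, which encodes the ER chaperone BiP, is shown in full up to its start, and those of 7 other genes as the stretch around the element, with the letters CCAAT and CCACG (or ATTGG and CGTGG, where the element lies on the other strand) in capitals.
HSPA5 (chr9:125241344-125241593, minus strand): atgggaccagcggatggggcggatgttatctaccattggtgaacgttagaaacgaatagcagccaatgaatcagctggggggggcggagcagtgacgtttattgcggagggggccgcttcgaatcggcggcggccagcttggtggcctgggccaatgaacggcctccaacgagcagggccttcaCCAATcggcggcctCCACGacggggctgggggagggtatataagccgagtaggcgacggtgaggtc
HSP90B1 (chr12:103930196-103930359, plus strand): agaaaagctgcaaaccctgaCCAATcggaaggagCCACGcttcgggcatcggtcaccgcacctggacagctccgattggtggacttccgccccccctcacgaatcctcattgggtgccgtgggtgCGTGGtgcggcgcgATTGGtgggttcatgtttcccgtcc
CALR (chr19:12938364-12938423, plus strand): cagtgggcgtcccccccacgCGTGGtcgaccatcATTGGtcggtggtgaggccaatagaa
CANX (chr5:179698758-179698817, plus strand): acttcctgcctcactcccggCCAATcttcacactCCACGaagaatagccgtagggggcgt
CRELD2 (chr22:49918534-49918593, plus strand): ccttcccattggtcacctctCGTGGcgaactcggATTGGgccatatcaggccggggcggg
FICD (chr12:108515103-108515162, plus strand): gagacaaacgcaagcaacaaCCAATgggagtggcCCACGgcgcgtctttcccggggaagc
ERO1B (chr1:236282149-236282208, minus strand): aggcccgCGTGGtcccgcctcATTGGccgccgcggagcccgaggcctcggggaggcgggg
XBP1 (chr22:28800582-28800641, minus strand): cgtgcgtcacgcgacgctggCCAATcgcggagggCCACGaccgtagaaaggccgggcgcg

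The C/EBP-ATF composite element, searched as TGATGCAA, was found before 78 of the 13549 tested genes (0.58%), 11 of the 654 called higher (1.68%), 2 of the 801 called lower (0.25%) and 3 of 15 genes of amino acid synthesis and one-carbon metabolism (20.0%). Of the stress genes downstream of PERK, ATF4 and CHOP only 1 of 18 carried it (5.56%). Of the ER-associated degradation genes 1 of 26 did (3.85%), and none of the ER chaperones or reported XBP1s targets. It is shown in capitals for 4 responding genes, in all of which it lies on the other strand and reads TTGCATCA.
HERPUD1 (chr16:56931946-56931995, plus strand): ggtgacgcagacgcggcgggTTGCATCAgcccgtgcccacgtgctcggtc
CHAC1 (chr15:40953242-40953291, plus strand): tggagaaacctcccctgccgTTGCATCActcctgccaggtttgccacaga
AARS1 (chr16:70289664-70289713, minus strand): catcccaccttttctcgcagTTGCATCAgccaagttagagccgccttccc
GOT1 (chr10:99430793-99430842, minus strand): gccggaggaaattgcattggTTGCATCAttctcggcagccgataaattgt
The core of the XBP1s element, TGACGTGG, was in 1.07% of promoters of genes called higher, 1.0% of those called lower and 0.76% of those tested. Before reported XBP1s targets it was found in 1 of 24 (4.17%). For CCACG the shares are given over the same 3 sets of all genes. CCACG, which is also a part of the ERSE, was in 41.28% of promoters of genes called higher, 46.94% of those called lower and 41.17% of those tested. A match describes these letters in this window and not a bound site.

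All 12 markers of mesenchymal glioma cells (VIM, CD44, FN1 and others) were above the filter level of 4.273 on all 6 arrays, with summed log2 signals of 134.83 to 136.41 basal and 134.07 to 135.4 on tunicamycin. Of 8 macrophage and leukocyte markers, 2 were above it on all basal and 4 on all treated arrays, and PTPRC and CD14 were too low to be tested. Of 6 endothelial markers 4 (PECAM1, VWF, KDR and TEK) were above it on all basal and 3 on all treated arrays. Of 10 astrocyte and neural markers 5 and 4 were, and of 8 epithelial markers 2 and 2. Passing this level therefore does not by itself tell a cell type. Pearson's r over all probe sets was 0.9762 to 0.9904 within a group. Replicate 1 on tunicamycin stood nearer to the basal arrays (r of 0.9553 to 0.9696) than the other treated arrays did (0.9485 to 0.9532). Over the 581 genes called lower in EV cells, its median change was -1.12, against -2.10 and -1.90 on replicates 2 and 3. The 3'-minus-5' signal of actin, a sign of RNA integrity, was 1.39 on this array, 2.06 and 1.93 on the other treated arrays, and 1.57 to 1.71 on the basal arrays. Counts without this array are given beside the results that it moves.

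A414T cells showed a broad response. Of 17220 tested genes, 802 (4.66%) were called higher and 990 (5.75%) lower on tunicamycin, 10.4% in all, that is with a Benjamini-Hochberg adjusted p under 0.05 from limma and a change of at least 2-fold. At the adjusted p alone, without a fold minimum, 2717 genes (15.8%) rose and 2975 (17.3%) fell, and below "rose" and "fell" are used in this sense. The median change over all tested genes was -0.01 on the log2 scale. The 3 treated arrays lay above all 3 basal arrays for 3327 genes (19.3%) and below them for 3523 (20.5%), so that the groups did not overlap for 39.8%. Without replicate 1 on tunicamycin, 904 genes were called higher and 1174 lower.

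The steepest rise was that of CTH, the enzyme that makes cysteine from cystathionine. Its log2 signal was 4.25, 4.75 and 4.85 on basal replicates 1, 2 and 3 and 9.60, 10.15 and 10.19 on tunicamycin, a change of 5.36 ± 0.25 (SE; adjusted p = 4e-16, limma), or 41.1-fold. The arrays of the treated and basal groups lay far apart, as they did for NUPR1, a small stress-induced chromatin protein (6.12, 7.04 and 6.06 basal; 11.31, 11.63 and 11.45 treated; 5.06 ± 0.21). The other genes among the 15 with the largest rises were ECM2, an extracellular matrix protein (5.03); IFIT1, an interferon-induced RNA-binding protein (4.66); CH25H, cholesterol 25-hydroxylase (4.63); UNC5B, a netrin receptor (4.56); DDIT4 (4.11) and DEPTOR (4.08), both inhibitors of mTOR signalling; ALDH1L2, a mitochondrial folate enzyme (4.07); GDF15, a stress cytokine (4.03); NTN4, a netrin (3.91); FIBIN (3.84); and the non-coding VAC14-AS1 (4.20), LINC02806 (4.13) and NMRAL2P (3.88). The 3 basal arrays of VAC14-AS1 and NMRAL2P and some of those of CTH, IFIT1, DEPTOR and FIBIN lay below the filter level of 4.273, so the low end of the scale bears on the size of these rises. A second probe set of ECM2 (-0.20) and of LINC02806 (-0.11) did not pass.

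The steepest fall was that of DUSP6, the phosphatase that switches off ERK and is itself induced by ERK signalling. Its log2 signal dropped from 10.76, 10.78 and 10.93 on the basal arrays to 4.03, 3.74 and 3.90 on tunicamycin, a change of -6.94 ± 0.43 (SE; adjusted p = 7.17e-14, limma). The treated values lay below the filter level of 4.273, so the size of the fall is set in part by the low end of the scale. All 3 DUSP6 probe sets fell, by 6.94, 6.67 and 4.53 on the log2 scale. Among the other 14 largest falls, 7 were genes of DNA replication and the cell cycle, namely CCNE2 (cyclin E2, -4.60), E2F8 (-4.29), MCM10 (-4.08), DTL (-4.0), MYBL1 (-3.73), CCND1 (cyclin D1, -3.73) and CDT1 (-3.68). The remaining ones were GRB14, an adaptor of the insulin receptor (-4.39); SPRY2, an inhibitor of receptor tyrosine kinase signalling (-4.32); SERPIND1, heparin cofactor II (-4.30); the zinc finger gene ZNF367 (-4.19); SOCS3, a feedback inhibitor of JAK-STAT signalling (-4.13); the pentraxin PTX3 (-4.05); and SLCO4A1, an organic anion transporter (-3.82). All treated arrays of SLCO4A1 and some of those of CCNE2, E2F8, MCM10, MYBL1, GRB14 and SOCS3 lay below 4.273, and a second probe set of MYBL1 (0.21) did not pass.

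**Figure D1:**
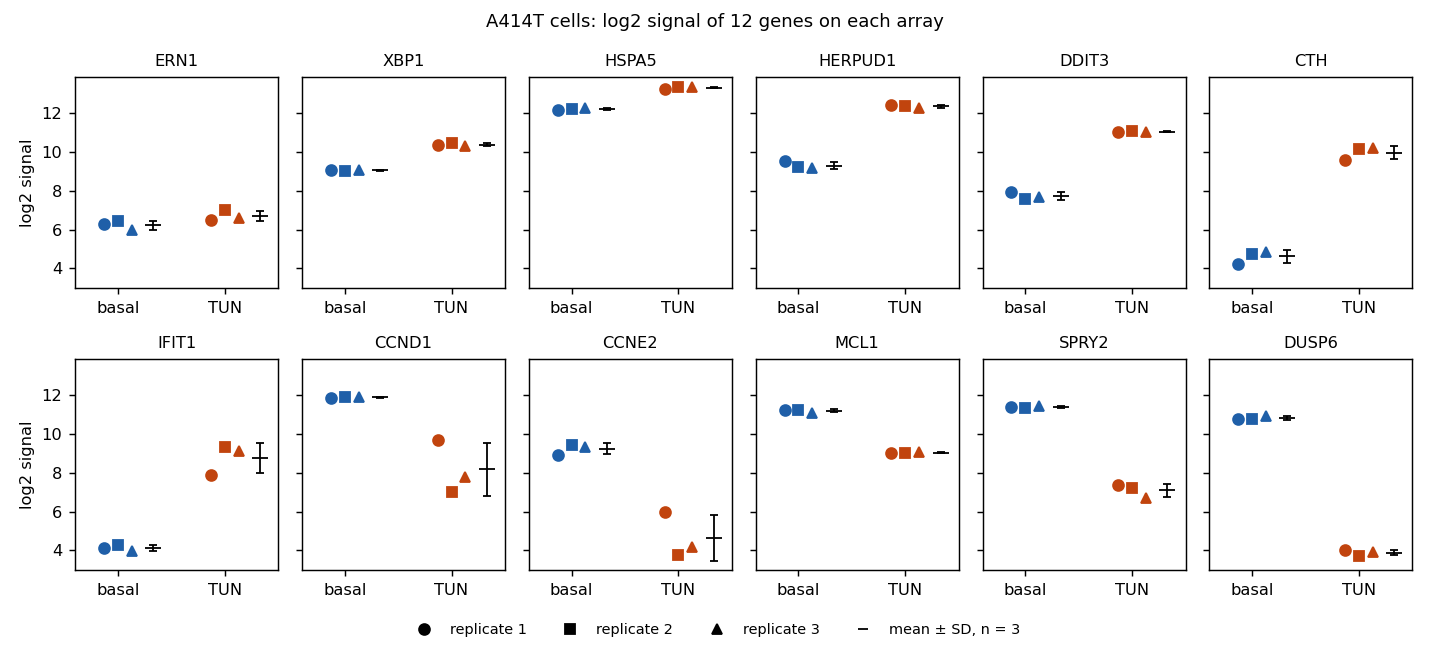
Log2 signal (y axis, same scale in all panels) of 12 genes on the 3 basal (blue) and 3 tunicamycin (orange) arrays of A414T cells, one symbol per replicate, with the mean ± SD beside them. For CCND1 and CCNE2 replicate 1 on tunicamycin (circle) stays above the other treated arrays, while XBP1, HSPA5, DDIT3 and MCL1 have close replicates in both groups, and the ERN1 groups lie next to each other without overlap.

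Among the sensors and transcription factors of the UPR, 14 of 18 rose and none fell (median 0.76), beside 15.8% and 17.3% of all tested genes. These 2 shares also stand beside the A414T counts of each list below. ERN1, the gene of IRE1, was at 6.29, 6.44 and 5.97 basal and at 6.49, 6.99 and 6.61 on tunicamycin, a change of 0.47 ± 0.25 (adjusted p = 0.164, limma) that did not pass, although the lowest treated array lay just above the highest basal one. Its other probe sets changed by 0.07 and -0.37, and none of them tells the A414T transcript from the cells' own. XBP1 rose by 1.32 ± 0.10, from 9.08, 9.02 and 9.07 to 10.35, 10.46 and 10.31 (adjusted p = 7.52e-12, limma); the array does not tell its spliced from its unspliced form, and its second, dimmer probe set changed by -0.11. EIF2AK3, which encodes PERK, rose by 0.76 ± 0.11 and ATF6 by 0.57 ± 0.12. The factors downstream of PERK moved further. ATF4 rose by 1.81 ± 0.10, ATF5 by 2.20, ATF3 by 2.49 and DDIT3, which encodes CHOP, by 3.32 ± 0.26, from 7.96, 7.56 and 7.66 to 11.02, 11.09 and 11.04.

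ER chaperones and disulfide isomerases rose in 24 of 33 members and fell in none, with a median change of 0.93. HSPA5 was at 12.17, 12.21 and 12.30 basal and 13.28, 13.36 and 13.35 on tunicamycin (1.10 ± 0.07, 2.15-fold, adjusted p = 3.75e-13, limma), with no overlap between the groups. A second, dimmer HSPA5 probe set went from 7.34, 7.37 and 7.14 to 10.53, 10.83 and 10.60, a rise of 3.37 on the log2 scale, so the size of the HSPA5 change differed with the probe set. ERO1B, an oxidase that drives disulfide formation, rose by 2.84, SDF2L1, a partner of BiP, by 2.59, and HYOU1, a large ER chaperone, by 2.42. All 7 members with an ERSE printed above rose: HSPA5 and ERO1B as given, CRELD2 by 2.34, FICD, which modifies BiP, by 1.44, the lectin chaperone CALR by 1.29, the HSP90 of the ER HSP90B1 by 0.93 and the lectin chaperone CANX by 0.56. Over all tested genes with an ERSE, 11 of 15 rose and none fell, beside 15.8% of all tested genes that rose, and of the 78 with the composite element 20 rose and 6 fell. Of the J-domain partners of BiP, 7 of 11 rose, led by DNAJB9 (2.01) and DNAJB11 (1.33).

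The machinery around the chaperones moved the same way, with smaller changes. Its counts stand beside 15.8% of all tested genes that rose and 17.3% that fell. In ER-associated degradation, 19 of 34 genes rose and 2 fell (median 0.45). HERPUD1, a scaffold of the degradation complex, rose by 3.06 (9.54, 9.22 and 9.17 basal; 12.45, 12.36 and 12.28 treated), SEL1L by 2.02 and EDEM1, which binds misfolded glycoproteins, by 1.65, while UBE2J2 (-0.43) and ERLIN1 (-0.57) fell. The translocon, signal recognition and signal peptidase genes rose in 16 of 24 and fell in none (median 0.27; SEC11C 1.30, TRAM2 1.08 and SEC63 0.95), and in 10 when only the arrays compared were fitted. Genes of N-glycosylation, the process that tunicamycin blocks, rose in 20 of 41 and fell in 3 (median 0.35). GFPT1, the entry enzyme of the hexosamine pathway, rose by 1.46 and MAGT1, an oligosaccharyltransferase subunit, by 1.24, and GNPNAT1 (-1.0), UAP1 (-0.53), both of the same sugar donor pathway as GFPT1, and ALG10 (-0.94) fell. DPAGT1, the enzyme that tunicamycin inhibits, rose by 0.89.

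ER-to-Golgi transport genes rose in 29 of 41 and fell in 3 (median 0.45). The rise was called for 18 under the methods' t-test and for 8 with a replicate block on only the arrays compared. The list was led by MIA3 (TANGO1, a cargo receptor for collagens, 1.45), MIA2 (1.09) and GOLGB1 (1.0). SAR1A (-0.45), SEC24A (-0.31) and MCFD2 (-0.24) fell, but no member did under the t-test or with only the arrays compared, with or without the block. In EV cells 11 of the same genes rose and 5 fell, and in IRE1-DN cells 4 rose and 8 fell. In WT cells 17 rose and 2 fell, and in cells with the P336L variant of the series 15 rose and 3 fell. Over all 17220 tested genes, 2717 rose and 2975 fell in A414T cells. The same counts were 3134 and 2187 in EV, 2706 and 2322 in WT, 2057 and 2407 in P336L and 1564 and 1832 in IRE1-DN cells. IRE1-DN cells had 2 arrays per condition against 3, so a change passes less readily there. Tested directly, the change exceeded that of EV cells for 10 of the 41 and that of IRE1-DN cells for 14, beside 2.28% and 5.65% of all tested genes, and lower for none in either comparison. SEC24D, a coat protein of the vesicles that leave the ER, differed most, by 1.16 from EV and by 1.36 from IRE1-DN cells. Against WT cells 1 of the 41 was higher. The A414T arrays are shared by these comparisons.

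Of 25 reported targets of XBP1s, 24 rose and none fell in A414T cells (median 0.73). In EV cells 15 rose and 1 fell (median 0.43), and in IRE1-DN cells 11 rose and 2 fell (median 0.23). In WT cells 21 rose (median 0.56) and in cells with the P336L variant 22 (median 0.5), and none fell in either. In the S769F and Q780* variants 18 and 17 rose and 1 fell in each (medians 0.47 and 0.59). Over all 17220 tested genes 2717 rose in A414T, 3134 in EV, 2706 in WT and 1564 in IRE1-DN cells. In P336L, S769F and Q780* cells 2057, 2895 and 3420 of them rose. SDF2L1 rose by 2.59, DNAJB9 by 2.01 and EDEM1 by 1.65. The change exceeded that of IRE1-DN cells for 10 targets, beside 5.65% of all tested genes, among them SEC24D (by 1.36), SYVN1, the ubiquitin ligase of ER degradation (by 1.32), EDEM2 (by 1.12) and KDELR3 (by 1.01). It exceeded that of EV cells for 7 and that of WT cells for 2, beside 2.28% and 1.46% of all tested genes, and was lower for none in any of these comparisons. XBP1 itself rose by 1.32 in A414T, 1.42 in EV, 0.91 in WT and 1.73 in IRE1-DN cells, and none of the differences from A414T cells passed (adjusted p = 0.779, 0.118 and 0.1, limma). Several of these targets also stand in the lists of chaperones, degradation and transport.

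Of 9 reported RIDD substrates, 3 rose and 2 fell, beside 15.8% and 17.3% of all tested genes. SCARA3, a scavenger receptor, went from 6.87, 7.11 and 6.95 to 5.20, 3.97 and 4.30, a fall of 2.49 ± 0.33 (adjusted p = 3.86e-07, limma), and COL6A1 fell by 0.80 ± 0.13. PDGFRB rose by 0.83. SCARA3 changed by -0.30 in IRE1-DN cells, which differed from that of A414T cells by -2.19 (adjusted p = 0.00471, limma), whereas the differences from EV (-0.66, adjusted p = 0.508) and WT cells (-1.31, adjusted p = 0.131) did not pass.

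**Figure D2:**
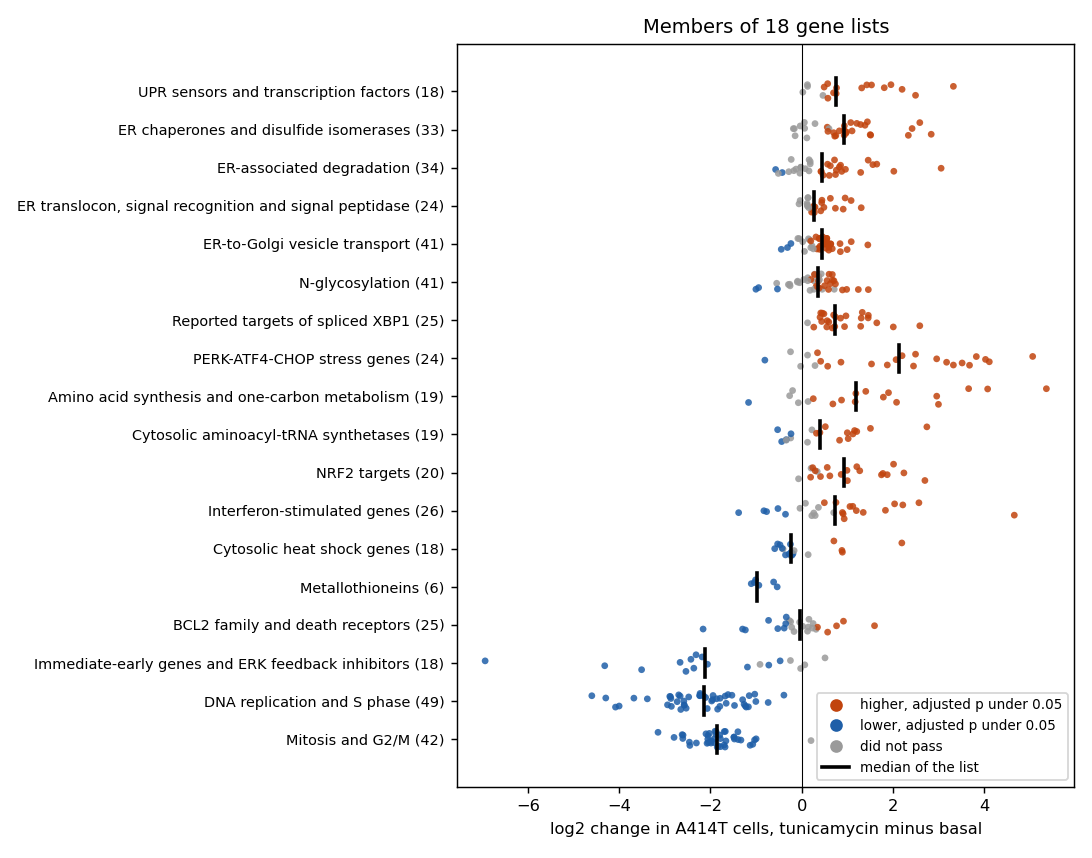
Log2 change in A414T cells (x axis) of each tested member of 18 gene lists, with the number of members in parentheses; orange points rose and blue points fell at an adjusted p under 0.05, grey points did not pass, and the bar is the median of the list. CTH (5.36) of amino acid synthesis and NUPR1 (5.06) of the PERK-ATF4-CHOP genes lie furthest to the right, and all but 1 of the genes of replication and mitosis lie left of 0.

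Stress genes downstream of PERK, ATF4 and CHOP had the largest median change of the lists that rose, 2.13, with 19 of 24 rising and 1 falling. Over all tested genes 15.8% rose and 17.3% fell. After NUPR1 and DDIT4, the largest rises were those of GDF15 (4.03), TRIB3, a pseudokinase that binds AKT and ATF4 (3.83), and SLC7A11, the cystine importer (3.68). CHAC1, which degrades glutathione and carries the composite element printed above, rose by 3.18 (4.44, 5.12 and 4.46 basal; 8.12, 8.06 and 7.36 treated). PPP1R15A, the GADD34 subunit that dephosphorylates eIF2alpha, fell by 0.81 ± 0.19, from 6.63, 7.22 and 6.66 to 5.90, 6.22 and 5.97, and its second probe set by 1.18. It changed by 0.38 in EV, 0.09 in WT and 1.47 in IRE1-DN cells, and the difference of A414T from EV (-1.19, adjusted p = 0.00374) and IRE1-DN cells (-2.28, adjusted p = 1.68e-06, limma) passed, with that from WT cells just short (adjusted p = 0.0501). In the wider list of UPR feedback regulators 8 of 18 rose and 5 fell, the latter being PPP1R15A, EIF2S1, which encodes eIF2alpha (-0.92), and the eIF2B subunits EIF2B1 (-0.42), EIF2B2 (-0.48) and EIF2B5 (-0.71).

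Genes that supply amino acids rose with them, and their counts stand beside 15.8% of all tested genes that rose and 17.3% that fell. In amino acid synthesis and one-carbon metabolism 14 of 19 rose and 1 fell (median 1.19). After CTH and ALDH1L2 came PCK2, mitochondrial phosphoenolpyruvate carboxykinase (3.66), and the aspartate aminotransferase GOT1, shown above for its composite element, rose by 1.19. The cytosolic serine hydroxymethyltransferase SHMT1 fell by 1.16. Among cytosolic aminoacyl-tRNA synthetases 11 of 19 rose and 4 fell. WARS1 (2.74), AARS1 (1.51) and SARS1 (1.21) led the rise, and FARSB (-0.53), HARS1 (-0.44), RARS1 (-0.34) and KARS1 (-0.23) fell. The falls were not stable. Only 1 fell under the methods' t-test or with only the arrays compared, and none with a replicate block on those arrays, while 10, 10 and 8 rose. Of 22 amino acid transporters 9 rose and none fell, with SLC7A11 followed by its partner chain SLC3A2 (3.52) and the leucine transporter SLC7A5 (3.44), but the median of the list was 0.15.

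Genes of DNA replication and S phase fell in 49 of 49 tested members (median -2.15, 47 of them called lower), beside 17.3% of all tested genes that fell. Mitotic genes fell in 41 of 42 (median -1.86); CDC25C (0.20) did not pass. CCNE2 went from 8.92, 9.45 and 9.37 to 5.99, 3.78 and 4.17 (-4.60 ± 0.42, adjusted p = 2.65e-10, limma), with replicate 1 on tunicamycin above the other treated arrays and below the basal ones. CCND1, at 11.88, 11.92 and 11.94 basal and 9.72, 7.01 and 7.81 treated, had the same order of arrays. The kinetochore genes SPC25 (-3.15), NUF2 (-2.80) and NDC80 (-2.62) fell most among the mitotic ones. Without replicate 1 on tunicamycin, the medians were -2.49 for replication and -2.33 for mitosis, with 49 and 41 members falling, and without replicate 2 they were -1.94 and -1.37, with 48 and 29 falling. Under the methods' t-test with Benjamini-Hochberg adjustment, which takes each gene's own spread, 26 and 3 members passed. In bulk RNA, fewer cells in cycle and less mRNA per cell cannot be told apart.

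The mitotic genes fell in the other lines too, 41 of 42 in each, with medians of -3.26 in EV and -3.31 in IRE1-DN cells. The median was -2.16 in WT, -1.97 in P336L, -3.91 in S769F and -4.29 in Q780* cells, against -1.86 in A414T cells. Of the 42, the change in A414T cells differed from that in EV cells for CCNB1 (by 1.56) and KIF20A (by 2.09), which fell less in A414T cells, and for ESPL1 (by -0.83), which fell more. These 2 higher and 1 lower stand beside 2.28% and 4.53% of all tested genes, near those shares. Against WT cells none of the 42 differed. Among replication genes 8 of 49 fell further in A414T than in EV cells, beside 4.53% of all tested genes. PRIM2, a primase subunit (by -1.99), CDT1 (by -1.40) and CHAF1A (by -1.35) were in front. Against WT cells 3 fell further, beside 2.14%. Against IRE1-DN cells the change was lower for 1 and higher for 3, beside 5.27% and 5.65%. The median of the list was -2.15 in A414T, -1.55 in EV, -1.58 in WT and -2.43 in IRE1-DN cells. In the variants S769F, Q780* and P336L of the series it was -2.20, -2.42 and -1.41. Among G1 cyclins and CDK inhibitors 6 of 14 fell, CCND1, RBL1 (-2.54) and CDK2 (-1.66) the furthest, and CDKN1A (p21, 0.90), CDKN1B (p27, 0.75) and RBL2 (0.52) rose. Over all tested genes 17.3% fell and 15.8% rose. CCND1 fell further in A414T cells than in EV (by -2.12), WT (by -1.92) and IRE1-DN cells (by -2.52), all past an adjusted p of 0.05 in limma. CDKN1B changed by 0.05 in EV and by -0.05 in IRE1-DN cells, and both differences passed.

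Immediate-early genes and feedback inhibitors of ERK fell deeply in A414T cells. These genes are switched on by ERK, and DUSP and SPRY/SPRED proteins in turn restrain the pathway. In A414T cells 13 of 18 fell and none rose (median -2.12), against 12 in EV cells with a median of -0.61, and 3 that fell and 2 that rose in IRE1-DN cells with a median of -0.08. Over all 17220 tested genes 2975 fell in A414T, 2187 in EV and 1832 in IRE1-DN cells. The fall was deeper in A414T than in EV cells for 9, than in WT cells for 8 and than in IRE1-DN cells for 10 of the 18, beside 4.53%, 2.14% and 5.27% of all tested genes. A lower basal level in another line leaves less room for a fall, and such levels are given below for DUSP6 only. SPRY2 stood at 11.42, 11.37 and 11.45 basal and 7.36, 7.23 and 6.70 treated (-4.32 ± 0.21), while it changed by -1.94 in EV, -2.08 in WT and -0.85 in IRE1-DN cells. DUSP5 changed by -2.18 in A414T, -0.50 in EV and -0.86 in WT cells and by 2.06 in IRE1-DN cells, and DUSP4 by -2.06, -0.60, -0.69 and 0.68 in the same order. EGR1 fell by 3.51 in A414T cells, but its basal arrays were spread (8.11, 9.80 and 8.25) and its differences from the other lines did not pass. FOS, FOSB, DUSP1, JUNB and SPRY1 did not pass in A414T cells.

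**Figure D3:**
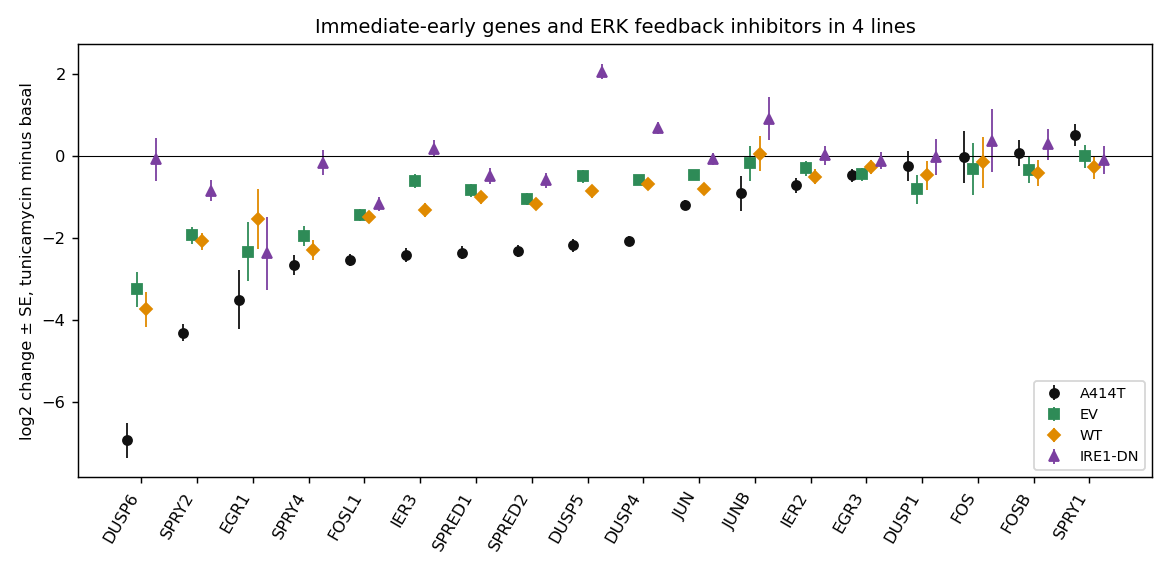
Log2 change on tunicamycin ± SE (y axis) of 18 immediate-early and ERK feedback genes (x axis) in A414T, EV, WT and IRE1-DN cells, in the order of the A414T change. From DUSP6 to DUSP4 the A414T points lie at -2.06 or below, and for all of these but EGR1 and SPRY4 they lie well under those of EV and WT cells.

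DUSP6 differed between A414T and all 3 of the other lines, but from different starting levels. Its basal mean was 10.82 in A414T, 10.39 in EV, 9.89 in WT and 5.34 in IRE1-DN cells, and its treated mean 3.89, 7.14, 6.16 and 5.25. The treated level of A414T cells was thus the lowest of the 4. IRE1-DN cells hardly changed (-0.08), but their basal mean of 5.34 lay nearer the low end of the scale and left less room for a fall. The difference of the responses was -3.68 ± 0.60 from EV (adjusted p = 0.000123), -3.20 ± 0.60 from WT (adjusted p = 0.00125) and -6.85 ± 0.68 from IRE1-DN cells (adjusted p = 1.68e-08, limma).

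In the list of BCL2 family members and death receptors, 5 of 25 rose and 8 fell, beside 15.8% and 17.3% of all tested genes. Leaving out any 1 basal array left 3 that rose. Under the methods' t-test 1 rose and 4 fell. With only the arrays compared 4 rose and 4 fell, and with a replicate block on them 2 rose and 3 fell. The pro-survival MCL1 fell from 11.24, 11.28 and 11.11 to 9.03, 9.03 and 9.09 (-2.16 ± 0.11, adjusted p = 3.13e-15, limma), and all 5 of its probe sets fell. BCL2L1, which encodes BCL-xL, fell by 1.30 ± 0.16 (8.78, 8.36 and 8.23 to 7.41, 7.25 and 6.83). Their falls were deeper than in EV cells, by -1.12 and -1.22, in WT cells, by -1.41 and -0.95, and in IRE1-DN cells, by -1.72 and -1.56, and all 6 differences passed. The pro-apoptotic BMF (1.60) and PMAIP1 (NOXA, 0.92) rose, with no difference from the other lines that passed for BMF (adjusted p = 0.903, 0.528 and 0.445, limma, against EV, WT and IRE1-DN cells). Of 20 p53 targets 11 rose and 2 fell (median 0.36), led by TP53INP1 (1.48) and PLK2 (1.36).

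Targets of NRF2, the factor of the oxidative stress response, rose in 17 of 20 and fell in none (median 0.93). This count and those of the next 2 lists stand beside 15.8% of all tested genes that rose and 17.3% that fell. AKR1B10 (2.70), AKR1C3 (2.24) and GCLC, the rate-limiting enzyme of glutathione synthesis (2.01), led the list. AKR1C family members are near-identical in sequence, and their probe sets may cross-hybridize. The change exceeded that in IRE1-DN cells for 9 of the 20, by up to 2.47 for AKR1B10, that in WT cells for 5 and that in EV cells for 1, beside 5.65%, 1.46% and 2.28% of all tested genes. Of the cytosolic heat shock genes 10 of 18 fell and 4 rose (median -0.23). The falls were small and their number was not stable: 5 fell without replicate 3 on tunicamycin, 6 without basal replicate 3, 3 with only the arrays compared in the fit and none when a replicate block was added to it, while 3 to 4 rose. The 4 were small heat shock proteins and a J-domain protein, CRYAB (2.19), HSPB8 (0.89), HSPB1 (0.88) and DNAJB4 (0.71). CRYAB rose from 4.76, 5.01 and 4.93 to 6.93, 7.25 and 7.10, and changed by -0.16 in EV, 0.02 in WT and -0.47 in IRE1-DN cells, with all 3 differences past the test (2.35, 2.17 and 2.66). All 6 metallothioneins tested, which bind zinc and copper and are close paralogs, fell (median -0.97).

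Secreted factors split by gene, and their counts stand beside 15.8% of all tested genes that rose and 17.3% that fell. Among chemokines CXCL3 (3.58) and CXCL2 (3.40), which attract neutrophils, rose and CXCL8 fell by 1.99, and 9 of 13 did not pass. CXCL8 changed by -0.17 in EV cells and by 0.44 in IRE1-DN cells, and both differences from A414T cells passed. In WT cells 3 of the 13 chemokines fell, beside 2322 of 17220 tested genes, and none of the 13 had a change in A414T cells that was lower than in WT cells and passed. Of interleukins and colony-stimulating factors IL1A (3.48) and IL15 (1.10) rose, and 4 of 12 fell, among them CSF3 (-3.06) and IL1B (-2.60). Interferon-stimulated genes rose in 14 of 26 and fell in 5 (median 0.73). IFIT1 went from 4.13, 4.29 and 3.99 to 7.91, 9.34 and 9.13, followed by IFIH1 (2.57) and IFIT2 (2.22), while OASL (-1.38), RIGI (-0.83), USP18 (-0.77), IFI44 (-0.52) and HERC5 (-0.35) fell. Under the methods' t-test 4 rose and 4 fell in that list. Of growth factors and receptors, TGFB3 (3.20) and IGFBP3 (2.65) rose and HGF (-2.72) and HBEGF (-2.42) fell. The other HGF probe sets fell less (-1.10 and -0.81) or did not pass (-0.615 and -0.396).

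Genes of vessels and matrix moved in both directions, as did the tested genes as a whole, of which 15.8% rose and 17.3% fell. Some of the list counts below lie near these shares. KDR, the main VEGF receptor and 1 of 4 endothelial markers above the filter level on all basal arrays, fell from 7.29, 7.29 and 6.98 to 4.44, 3.89 and 3.90 (-3.11 ± 0.20, adjusted p = 1.56e-13, limma). Its basal mean was 7.18 in A414T against 4.30 in EV, 4.58 in WT and 5.31 in IRE1-DN cells. The other endothelial markers tested did not pass. Of 18 angiogenesis ligands, receptors and inhibitors 7 rose and 4 fell (median 0.35), and without replicate 1 on tunicamycin 4 rose. NRP2, a co-receptor of VEGF and semaphorins (1.90), ADM (1.07), FGF2 (1.03), VEGFB (0.995), PGF (0.55) and FLT1 (0.49) were among those that rose. Besides KDR, FGF5 (-2.36), ANGPTL4 (-1.43) and VEGFC (-1.11) fell. VEGFA changed by -0.02 in A414T cells and by 2.23 in IRE1-DN cells, a difference of -2.25 (adjusted p = 4.02e-09, limma). Of 17 genes of matrix proteases, their inhibitors and plasminogen activation, 4 rose and 5 fell. TIMP4, an inhibitor of metalloproteinases, rose by 2.29, and the collagenase MMP1 (-2.42), the urokinase receptor PLAUR (-2.23) and urokinase itself, PLAU (-1.84), fell. PLAUR stood at 10.84, 10.82 and 10.87 basal and 8.43, 8.95 and 8.45 treated, and fell further than in EV (by -0.98), WT (by -0.79) and IRE1-DN cells (by -1.30), all 3 past the test. Of 24 other matrix genes 5 rose and 2 fell, the latter CCN2 (-2.66) and VCAN (-1.41). LAMA4 rose by 1.26 on its brightest probe set, while others of its probe sets went the other way. Of 22 collagens 5 rose, with COL1A2 (1.32) and COL5A1 (1.10) in front, and 6 fell, with COL13A1 (-2.48) and COL4A2 (-2.33) in front. In autophagy and lysosome genes GABARAPL1 (3.70), ULK1 (2.77) and WIPI1 (1.43) led 9 of 23 that rose, and ATG7 (-0.99), CTSL (-0.84), NPC1 (-0.62) and ATG3 (-0.32) fell. Of 26 genes of glycolysis and hypoxia 6 rose and 5 fell, with the glucose transporter SLC2A1 (1.26) and NDRG1 (1.22) in front. Of 11 contractile genes MYL9 (0.99) and CNN1 (0.89) rose and ACTA2 fell by 0.40, with a median of 0.05. In IRE1-DN cells 7 of the 11 fell and none rose (median -0.60), beside 1832 of 17220 tested genes that fell and 1564 that rose there. For 8 the change in A414T cells exceeded that of IRE1-DN cells, beside 5.65% of all tested genes. Genes of cholesterol and fatty acid synthesis rose in 7 of 29 and fell in 4, beside 15.8% and 17.3% of all tested genes. SCD, the stearoyl-CoA desaturase, rose by 1.56, the sterol carrier STARD4 by 1.43 and HMGCS1 by 1.27. In IRE1-DN cells none of the 29 rose and 11 fell, beside the same 1564 and 1832 of 17220 tested genes. The change was higher than in IRE1-DN cells for 9, beside 5.65% of all tested genes.

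The response of A414T cells as a whole resembled those of the other lines. Across 17220 genes, Pearson's r between the A414T change and that of another line was 0.77 for EV, 0.791 for WT and 0.622 for IRE1-DN cells, a description over genes that are not independent replicates. It was 0.846 for P336L, 0.786 for S769F and 0.761 for Q780* cells, the other variants of the series. Of the genes called higher in A414T cells 487 were also called in EV cells (60.7% of 802, and 53.5% of the 911 of EV cells, which were 5.29% of tested genes). Of those called lower 489 were shared (49.4% of 990, and 84.2% of the 581 of EV cells, 3.37% of tested genes). With WT cells 463 higher calls (57.7% of 802, and 63.3% of 731, which were 4.25% of tested genes) and 493 lower calls (49.8% of 990, and 87.1% of 566, or 3.29%) were shared. With IRE1-DN cells the shared calls were 249 higher (31.0% of 802, and 55.5% of 449, or 2.61%) and 472 lower (47.7% of 990, and 65.6% of 720, or 4.18%).

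The response differed from that in EV cells for 506 genes (2.94%), with a higher change in 161 (0.935%) and a lower one in 345 (2.0%). Against WT cells it differed for 289 (1.68%), 111 higher (0.645%) and 178 lower (1.03%), and against IRE1-DN cells for 939 (5.45%), 540 higher (3.14%) and 399 lower (2.32%). Of the 345 genes with a lower change than in EV cells, 193 were among those called lower in A414T cells, and of the 540 with a higher change than in IRE1-DN cells 292 were called higher in A414T cells. Without replicate 1 on tunicamycin, 501 genes differed from the WT response. Genes called in A414T cells and not in another line are not thereby different, and only 81 of the 315 called higher in A414T and not in EV cells had a difference that was called.

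**Figure D4:**
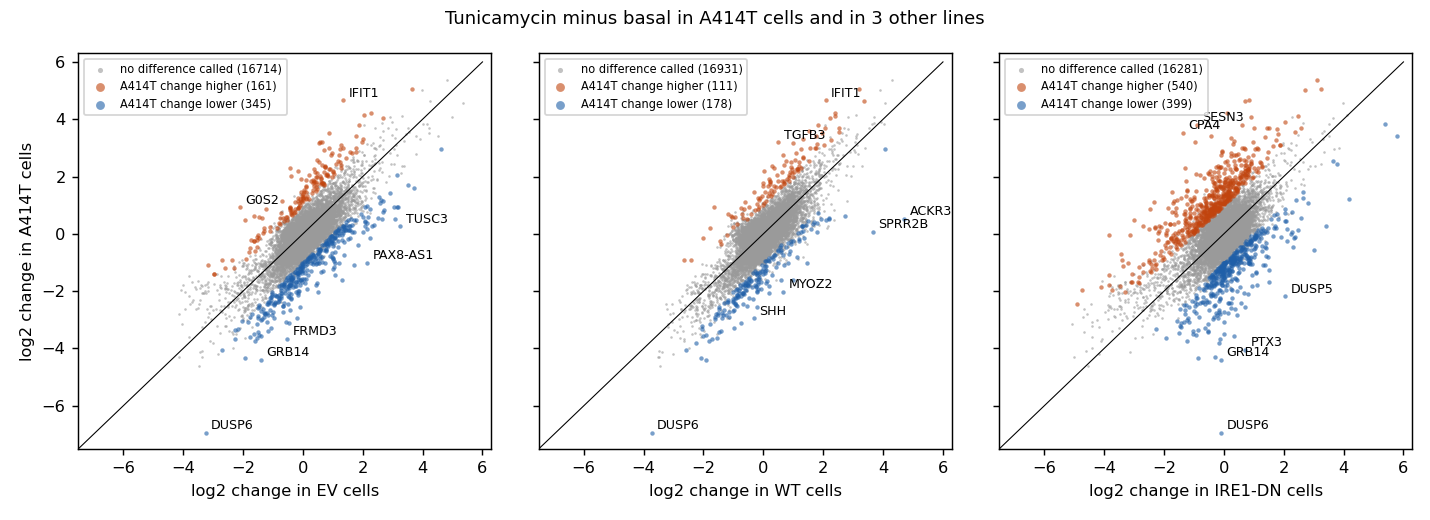
Log2 change on tunicamycin in A414T cells (y axis) against that in EV, WT and IRE1-DN cells (x axes) for 17220 genes; the line marks equal change, and colours mark genes whose change was called higher (orange) or lower (blue) in A414T cells. DUSP6 lies furthest below the line in the EV and IRE1-DN panels, and ACKR3 and SPRR2B lie far to the right in the WT panel, near 0 in A414T cells.

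Several genes that tunicamycin raised in EV or WT cells moved little in A414T cells. ACKR3, a scavenging chemokine receptor, was at 3.93, 3.84 and 3.85 basal and 4.48, 4.22 and 4.50 treated in A414T cells (0.53 ± 0.18), and changed by 4.70 in WT, 3.06 in EV, 4.63 in S769F, 5.30 in Q780*, 4.62 in P336L and 1.59 in IRE1-DN cells. SPRR2B, an epithelial barrier protein, changed by 0.08 in A414T cells (4.00, 4.06 and 4.14 basal; 4.08, 4.29 and 4.07 treated) and by 3.66 in WT cells. TUSC3, an oligosaccharyltransferase subunit, changed by 0.27 in A414T, 3.25 in EV and 0.03 in IRE1-DN cells. On the basal A414T arrays the probe sets that stood for these 3 genes lay below the filter level of 4.273. On tunicamycin the one for TUSC3 stayed below it on all A414T arrays and the one for SPRR2B on all but 1. Both genes were thus tested only because they reached the filter level in other lines, and their differences restate those levels. A second ACKR3 probe set, at 4.58, 4.56 and 4.21 basal, changed by 0.08. The differences from WT cells for ACKR3 and SPRR2B (-4.17 and -3.58, both with an adjusted p of 2.23e-12 in limma) and from EV cells for TUSC3 (-2.98, adjusted p = 2e-06) passed.

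Others fell further in A414T cells, from a higher basal level. SHH, the sonic hedgehog ligand, was at 7.18, 7.85 and 8.10 basal and 5.34, 4.47 and 4.46 treated in A414T cells (-2.95 ± 0.25), with basal means of 4.76 in EV, 4.78 in WT and 4.60 in IRE1-DN cells. FRMD3 fell by 3.65 from a basal mean of 9.20, where EV cells had 4.80 and IRE1-DN cells 4.12, and GRB14 by 4.39 from 8.64, against 5.56 in EV and 3.63 in IRE1-DN cells. Levels near the low end of the scale leave less room for a fall. TGFB3 went the other way, from 5.79, 4.82 and 5.16 to 8.42, 8.54 and 8.41 in A414T cells (3.20 ± 0.27), with changes of 0.57 in EV, 0.50 in WT and -0.95 in IRE1-DN cells. CPA4, a carboxypeptidase, changed by 3.52 in A414T, 0.89 in EV, 1.96 in WT and -1.37 in IRE1-DN cells.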

How the data were processed

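Total RNA (6 µg per array) was hybridized to Affymetrix human arrays of 54715 probe sets. Per the labels, the authors turned the scans into log2 signals by RMA (background correction, quantile normalization, summary per probe set). Neither the RMA version nor whether all 40 arrays were processed together is stated in the sources at hand. RMA gives arrays the same signal distribution, so changes are relative to it. Of the probe sets 40920 carried 1 gene symbol, and 40914 of them were kept after control probe sets were left out. Each of 19774 genes was read from its brightest probe set, and 17220 genes that reached 4.273, the signal below which 40% of values lie, on 2 or more arrays were tested; members below it were not analysed.

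limma 3.58.1 (R 4.3.3) was fitted to the means of all 14 groups with no replicate block (26 residual and 3.439 prior degrees of freedom). Differences between lines were interactions. Members and lists were chosen with earlier results of these data known. Several genes stand in more than 1 list. Genes were named by rule (the 15 largest rises and falls, the 3 largest changes of a list and members against its majority, the 8 largest differences per line, and 7 UPR genes), and others after their values were seen or for their promoter. RefSeq promoters (GRCh38.p14) were matched by gene ID. Tested on simulated data, a log2 change of 1.5 was recovered for 97% in the A414T response and for 86%, 83% and 74% in the differences from EV, WT and IRE1-DN. The number of arrays limits the precision. Alternatives covered the filter, probe sets, normalization, arrays fitted, replicate block, eBayes, fold minimum, the methods' t-test and each array left out; leaving out replicate 1 of both A414T groups was chosen after seeing the data.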

Additional observations from a re-analysis of the deposited data

Results flagged for a closer look

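Each of these results is a difference between the tunicamycin response of A414T cells and that of another line, tested as an interaction and called. Against EV cells 506 genes differed. The 8 largest differences on the log2 scale were those of DUSP6 (-3.68), IFIT1 (3.31), PAX8-AS1 (-3.15), FRMD3 (-3.14), G0S2 (3.01), GRB14 (-3.00), TUSC3 (-2.98) and PNLIPRP3 (-2.90). G0S2, an inhibitor of triglyceride lipase, had a basal mean of 4.96 in A414T and 8.26 in EV cells, and PAX8-AS1, a non-coding RNA, one of 8.15 and 4.48. Against WT cells 289 genes differed, with ACKR3 (-4.17), SPRR2B (-3.58), DUSP6 (-3.20), TGFB3 (2.70), MYOZ2 (-2.70), SHH (-2.62), PNLIPRP3 (-2.61) and IFIT1 (2.58) in front. PNLIPRP3, a pancreatic lipase-related protein, fell by 1.60 in A414T cells, where it rose by 1.30 in EV and by 1.0 in WT cells. MYOZ2, a protein of muscle Z discs, fell by 2.03 in A414T cells and changed by 0.67 in WT cells. Against IRE1-DN cells 939 genes differed, with DUSP6 (-6.85), CPA4 (4.88), PTX3 (-4.76), SESN3 (4.70), GRB14 (-4.30), DUSP5 (-4.24), TGFB3 (4.15) and VAC14-AS1 (4.11) in front. PTX3, a soluble pattern recognition protein, fell by 4.05 in A414T cells and changed by 0.72 in IRE1-DN cells, and SESN3, a sestrin that restrains mTORC1, changed by 3.81 and -0.90. TUSC3 and SPRR2B lay near or below the filter level in A414T cells and were tested through their levels in other lines. The 3 comparisons share the A414T arrays.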

How the results depend on the processing

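Same-numbered basal and treated replicates did not deviate together (r of -0.386, -0.123 and -0.158 for numbers 1, 2 and 3), so the numbers were not taken to pair the arrays. With a replicate block over all arrays no named gene changed its call, and 804 genes were called higher and 990 lower. With the block on only the arrays compared, 755 and 881 were called, and 330, 162 and 546 genes differed from the EV, WT and IRE1-DN responses (506, 289 and 939 as reported). With only the arrays compared and no block, 174 differed from the WT response. When a gene's probe sets were averaged, 313 differed from the EV and 190 from the WT response, and the response of HK2 (-0.072) and LAMA4 (-0.16) turned, since their probe sets were opposed (1.17 against -1.31 and 1.26 against -1.28). The methods' t-test with adjustment called 639 genes higher and 625 lower. With a 1.5-fold minimum 1766 were called higher and 1937 lower, and 979, 542 and 1628 differed from EV, WT and IRE1-DN; with no fold minimum these were 2717, 2975, 1174, 620 and 1881. Leaving out 1 array in turn gave 738 to 904 higher, 869 to 1174 lower, and 390 to 666, 210 to 501 and 813 to 1024 genes that differed from EV, WT and IRE1-DN. The 501 came without A414T replicate 1 on tunicamycin, and without replicate 1 of both A414T groups 818 differed from EV and 749 from WT. The filters, centring, quantile normalization again and eBayes with trend and robust kept all 5 counts within 1.5 times. At the adjusted p alone, 1447 genes rose and 1478 fell under the methods' t-test, and 1320 and 1368 with the block on only the arrays compared (2717 and 2975 as reported). With that block 11 of 34 degradation, 6 of 24 translocon, 9 of 41 N-glycosylation, 15 of 25 XBP1s target, 11 of 20 NRF2 and 5 of 20 p53 genes rose, against 19, 16, 20, 24, 17 and 11 as reported, and under the t-test 4 p53 targets and 4 autophagy genes rose.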
